A study of Homo sapiens with 6 samples.

Results

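Pseudouridine is an isomer of uridine that cells make within finished RNA chains, and it is abundant in tRNA, rRNA, spliceosomal RNA and some mRNA. It is made either by dyskerin, which is led to its sites by H/ACA guide RNAs, or by stand-alone pseudouridine synthases, which recognise their sites without a guide. PUS1 is the stand-alone enzyme that modifies uridines in and around the anticodon arm of cytosolic and mitochondrial tRNA, and inherited loss of PUS1 causes a mitochondrial myopathy with sideroblastic anaemia. The genes described here are PUS1 and 9 other stand-alone synthases, taken from the table by their symbols. They are PUS1, PUS3, PUSL1, PUS7, PUS7L, PUS10, TRUB1, TRUB2, RPUSD3 and RPUSD4, each matched to 1 of the 60605 genes of the deposited table, and all 10 passed the filter on low counts that left 14748 genes for testing.

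MDA-MB-231 cells, an established triple-negative breast cancer line, were infected to express a hairpin that targets PUS1 (shPUS1) or a control hairpin (shControl), with 3 biological replicates for each. Both hairpins were delivered with lentivirus, the vector described for the PUS1 hairpins was pLKO.1 with puromycin resistance, and cells were selected and kept in puromycin before RNA was taken. Poly(A) RNA was sequenced. Neither the labels nor the methods state the sequence of the control hairpin, or whether replicates were infected separately, so that p-values measure the spread between these 6 libraries. The deposited table gives estimated counts and FPKM (fragments per kilobase of exon, scaled to the library's total), and the library totals were 15003203, 19625998 and 14241505 counts for shControl replicates 1, 2 and 3 and 18233530, 18335152 and 17109464 counts for shPUS1 replicates 1, 2 and 3.

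The libraries had the mRNA profile of the line. VIM, CD44, AXL and CAV1, which mark mesenchymal breast cancer cells, had a summed level of 602.1 to 1030 FPKM in every library, and VIM was the most abundant of them. Their sums were lower in the shPUS1 libraries (602.1 to 638.2 FPKM) than in the shControl libraries (814.3 to 1030 FPKM), and with all 6 libraries edgeR called none of the 4 genes. VIM (-0.40, adjusted p = 0.0305) and AXL (-0.48, adjusted p = 0.014) were called lower by edgeR without shControl replicate 2, and DESeq2 on all 6 libraries called both (adjusted p = 0.0229 and 0.00559). CD44 was at -0.29 and CAV1 at -0.42 on the log2 scale with all libraries, and at -0.22 and -0.00 without it, past the threshold in neither fit. The hormone receptor genes ESR1 and PGR were at or below 0.04 FPKM in all 6 libraries, and E-cadherin (CDH1) was at or below 0.18 FPKM. CDH1 had 20 counts or fewer per library. It was at 0.10, 0.00 and 0.09 FPKM in shControl and at 0.15, 0.18 and 0.16 FPKM in shPUS1. Its log2 fold change was 1.47 (adjusted p = 0.28, edgeR), and 0.82 (adjusted p = 0.182, edgeR) without shControl replicate 2. All 5 luminal genes, with GATA3 and EPCAM, summed to between 4.39 and 5.12 FPKM, EPCAM being the most abundant, and ERBB2 was between 4.93 and 6.91 FPKM. The leukocyte gene PTPRC was at or below 0.02 FPKM. Of 3 fibroblast genes, DCN was at or below 0.03 FPKM, whereas PDGFRB was listed at 4.67, 1.32 and 5.63 FPKM in shControl replicates 1, 2 and 3 and at 7.56, 8.29 and 6.67 FPKM in the shPUS1 replicates. COL1A1, a collagen gene, was at 1.63, 0.73 and 2.35 FPKM in shControl and at 3.14, 3.53 and 3.19 FPKM in shPUS1. The 3 genes summed to 6.32, 2.05 and 7.98 FPKM in shControl and to 10.7, 11.82 and 9.89 FPKM in shPUS1, without overlap between the arms, and PDGFRB was the most abundant of them. With all libraries the log2 fold changes were 1.11 for COL1A1 (adjusted p = 0.11, edgeR) and 1.00 for PDGFRB (adjusted p = 0.195, edgeR). Without shControl replicate 2 both were called higher in shPUS1, COL1A1 at 0.77 (adjusted p = 0.0123, edgeR) and PDGFRB at 0.59 (adjusted p = 0.0163, edgeR), and DESeq2 on all 6 libraries called COL1A1 (adjusted p = 0.0202) and not PDGFRB (adjusted p = 0.0855). Whether these markers have a part in the results below was not tested.

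One control library stood apart from the rest. Across the tested genes, which are not independent replicates, log2 CPM (counts relative to the library's total, adjusted by TMM factors) of shControl replicate 2 correlated with replicates 1 and 3 at r = 0.9505 and r = 0.9521, against r = 0.981 between replicates 1 and 3. In this library 751 genes (5.09%) were more than 1 on the log2 scale above the mean of the other controls and 1675 genes (11.4%) were more than 1 below it, whereas 568 genes (3.85%) differed by that much between replicates 1 and 3. Of the 10 synthase mRNAs, 7 had their highest level of all 6 libraries in shControl replicate 2, as did 31.2% of the tested genes. What set this library apart was not tested, and fold changes are therefore given with and without it.

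The supplement of the study lists 3 hairpins against PUS1, shown here because they set which synthase mRNA should be cut. The text does not say which of them the sequenced cells carried, and the column headings call the arm knockdown-2 without saying whether this names shPUS#2. The gene (ENSG00000177192) spans 131929200 to 131945896 of chromosome 12, on the plus strand. Each target is given 5′ to 3′ as DNA, with capitals marking the bases that pair with guide positions 2 to 8, the seed, if the guide begins opposite the last base of the target.

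shPUS#1 target: tgtcgggtcctcaCAATTCAa
shPUS#2 target: gcacttcgagaagTACAACCa
shPUS#3 target: gcacgcacaacttCCACAATt

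On GRCh38 these lie at chr12:131932180-131932200, chr12:131941761-131941781 and chr12:131941469-131941489. They are exonic, in 10, 5 and 5 of the 11 PUS1 transcripts of GENCODE 29, and in every coding transcript that holds them they fall in the coding sequence. The guide strands that pair with them follow, with the seed in capitals.

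shPUS#1 guide: tTGAATTGtgaggacccgaca
shPUS#2 guide: tGGTTGTActtctcgaagtgc
shPUS#3 guide: aATTGTGGaagttgtgcgtgc

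None of the full targets was found in a transcript of another gene. Sites in the other 9 synthases were ranked by mismatches over the whole target. For shPUS#1 the closest was in PUS7L (6 mismatches), and for shPUS#2 in PUS7 (6 mismatches, 1 of 2 sites with that number). For shPUS#3 it was in PUSL1 (7 mismatches). These sites are shown because they are the nearest to another synthase mRNA by this measure. Matches to the seed alone were not searched for. Capitals mark the bases that differ from the target.

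PUS7L site: tgtcAgTATctcacaCttTaa
PUS7 site: gcCAttcgagaagtGcTaAAa
PUSL1 site: gcacAcacGacttcAGcGCCt

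PUS1 mRNA was lower in every shPUS1 library than in any shControl library. It was listed at 2.57, 4.66 and 2.18 FPKM in shControl replicates 1, 2 and 3, from 221, 524 and 178 counts. In shPUS1 replicates 1, 2 and 3 it was at 1.13, 0.95 and 0.93 FPKM, from 118, 100 and 91 counts. The shPUS1 values were close together (1.00 ± 0.110 FPKM, SD, n = 3) and the shControl values were spread by replicate 2 (3.14 ± 1.33 FPKM, SD, n = 3). The fitted level in shPUS1 was 0.322 times that in shControl, a log2 fold change of -1.64 (standard error 0.32, 95% interval -2.38 to -0.89, adjusted p = 0.0462, edgeR's quasi-likelihood test with Benjamini-Hochberg adjustment over all tested genes). Without shControl replicate 2 it was 0.435 times the control level, a log2 fold change of -1.20 (standard error 0.16, 95% interval -1.57 to -0.84, edgeR adjusted p = 0.00311). A two-sided exact permutation test on log2 CPM gave p = 0.1, the smallest that 3 libraries against 3 allow. Only 0.529% of the tested genes had a lower fold change than PUS1 with all libraries, and 1.94% without shControl replicate 2. In RNA from a whole culture, fewer cells with the mRNA and less of it per cell cannot be told apart.

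The fall of PUS1 kept its direction in all 16 other fits, between -1.86 and -1.0 on the log2 scale, and was past the threshold in 9 of them. The call was lost with limma on log2(FPKM + 1), at -1.0 with an adjusted p of 0.0593, with limma on log2(FPKM + 0.1), at -1.48 with an adjusted p of 0.057, and when shControl replicate 1 was left out, at -1.78 with an adjusted p of 0.0905 by edgeR. It was also lost when shPUS1 replicate 1, 2 or 3 was left out, with edgeR adjusted p-values of 0.208, 0.253 and 0.192 and log2 fold changes of -1.74, -1.59 and -1.59. The remaining loss was in the fit with a replicate block, whose values are given in the closing section.

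**Figure D1:**
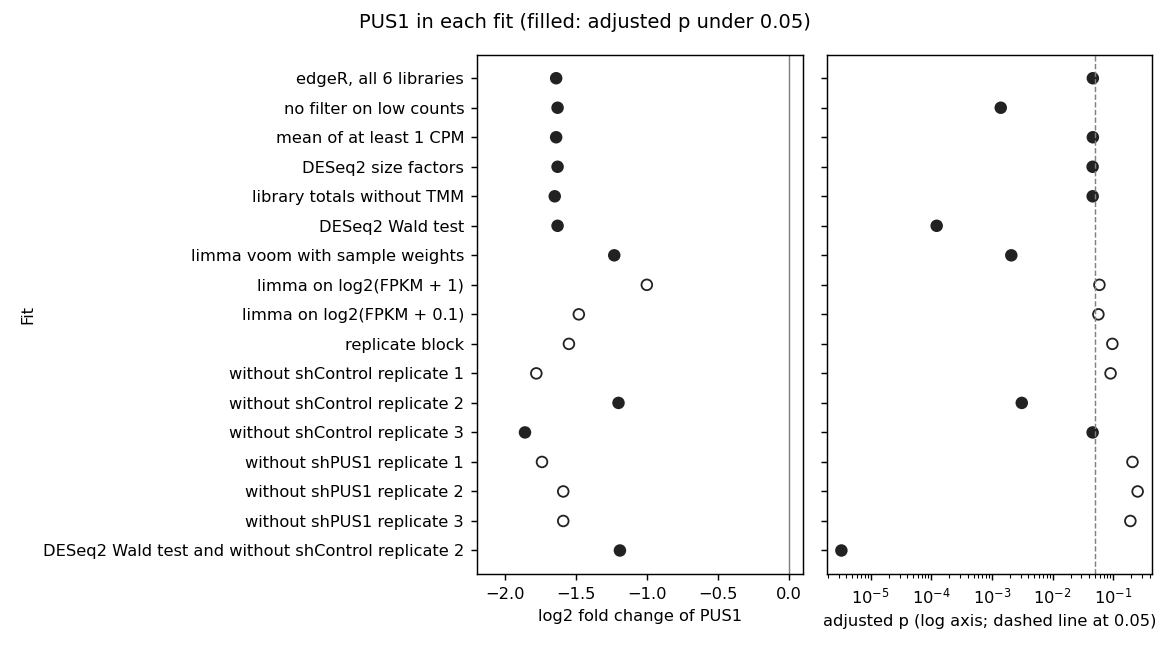
Log2 fold change of PUS1 in shPUS1 relative to shControl (left) and its adjusted p on a log axis (right), for the edgeR fit on all 6 libraries and 16 other fits. Filled points have an adjusted p under 0.05. The fold changes lie between -1.86 and -1.0, and the adjusted p-values from 3.3e-06 to 0.253 spread over both sides of the line.

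The background for this call was 124 genes lower in shPUS1, 0.841% of those tested, and 256 genes higher, 1.74%, by the same edgeR rule. With library totals in place of TMM scaling the counts were 132 lower and 164 higher. With an added limit of -1 on the log2 fold change, 0.481% of the tested genes were called lower, PUS1 among them. Without shControl replicate 2 edgeR called 8.79% of the tested genes lower and 9.8% higher, and DESeq2 on all 6 libraries called 5.68% lower and 7.28% higher. Under each of these rules 1 of the 10 synthases, PUS1, was called lower, and none was called higher.

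PUS3 and PUSL1 belong to the same structural family as PUS1. PUS3 modifies uridines of the tRNA anticodon arm next to those of PUS1. It was at 5.44, 4.01 and 4.33 FPKM in shControl replicates 1, 2 and 3 and at 4.67, 3.93 and 5.64 FPKM in the shPUS1 replicates, so that the groups overlapped over nearly their whole range. Its log2 fold change was 0.07 (95% interval -0.42 to 0.57, adjusted p = 0.849, edgeR), and -0.003 (95% interval -0.44 to 0.44, adjusted p = 0.993, edgeR) without shControl replicate 2. PUSL1, a PUS1-like protein with less defined targets, was at 4.69, 5.88 and 4.65 FPKM in shControl and at 4.64, 4.08 and 4.30 FPKM in shPUS1. The highest shPUS1 level of PUSL1 lay just below the lowest shControl level in FPKM, whereas in the TMM-scaled CPM shPUS1 replicate 1 (11.57) was above shControl replicates 1 and 3 (11.32 and 11.11). The log2 fold change was -0.21 (95% interval -0.64 to 0.22, adjusted p = 0.503, edgeR) with all libraries and -0.06 (95% interval -0.36 to 0.24, adjusted p = 0.762, edgeR) without shControl replicate 2. Relative to PUS1 in the same library, PUS3 was at 2.12, 0.861 and 1.99 times the PUS1 FPKM in shControl and at 4.13, 4.14 and 6.06 times in shPUS1. The corresponding ratios for PUSL1 were 1.82, 1.26 and 2.13 in shControl and 4.11, 4.29 and 4.62 in shPUS1. Both ratios were thus higher in each shPUS1 library than in any shControl library, and scaling between libraries cancels in them.

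PUS7 and its relative PUS7L form a second family. PUS7 modifies tRNA, tRNA fragments and many mRNAs. Its level was 4.86, 11.14 and 5.94 FPKM in shControl and 4.73, 4.27 and 3.85 FPKM in shPUS1. In shControl, replicate 1 was close to the highest shPUS1 library, and replicate 2 was far above all others. The groups did not overlap in FPKM, but they did in the TMM-scaled CPM, at 21.14 in shControl replicate 1 and 21.26 in shPUS1 replicate 1. The log2 fold change of -0.76 (95% interval -1.50 to -0.03) did not pass the adjustment (adjusted p = 0.182, edgeR), and it was -0.29 (95% interval -0.59 to 0.01, adjusted p = 0.159, edgeR) without shControl replicate 2. PUS7L was at 3.04, 4.31 and 4.37 FPKM in shControl and at 2.59, 3.11 and 2.89 FPKM in shPUS1, where only shPUS1 replicate 2 reached the range of the controls. The log2 fold change of PUS7L was -0.43 (95% interval -0.84 to -0.02, adjusted p = 0.178, edgeR) with all libraries and -0.33 (95% interval -0.68 to 0.01, adjusted p = 0.158, edgeR) without shControl replicate 2. In that library PUS7 was 1.12 (log2 CPM) above the mean of the other controls, and PUS7L was 0.32 above it. The ratio of PUS7 to PUS7L FPKM was 2.58 in shControl replicate 2 and between 1.33 and 1.83 in the other 5 libraries.

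PUS10, which modifies the T arm of tRNA and has a separate role in the processing of microRNA, was the least abundant of the 10 synthase mRNAs. It was at 0.50, 0.81 and 0.52 FPKM in shControl (57, 121 and 57 counts) and at 0.27, 0.36 and 0.37 FPKM in shPUS1 (37, 50 and 49 counts). All shPUS1 libraries were below all shControl libraries, with shPUS1 replicate 1 the lowest. The log2 fold change was -0.86 (standard error 0.31, 95% interval -1.57 to -0.16, adjusted p = 0.135, edgeR), and -0.58 (standard error 0.25, 95% interval -1.14 to -0.02, adjusted p = 0.135, edgeR) without shControl replicate 2. This was the largest fitted difference after that of PUS1 in both fits, and it did not pass the threshold in either.

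TRUB1 and TRUB2 are the human relatives of bacterial TruB. TRUB1, which modifies the T loop of tRNA and sites in mRNA, was the most abundant of the 10 synthase mRNAs in both arms, at 9.56, 12.35 and 8.70 FPKM in shControl and 8.17, 8.97 and 7.73 FPKM in shPUS1. Its groups overlapped, and its log2 fold change was -0.28 (95% interval -0.70 to 0.13, adjusted p = 0.348, edgeR) with all libraries and -0.10 (95% interval -0.34 to 0.15, adjusted p = 0.548, edgeR) without shControl replicate 2. TRUB2 acts in mitochondria. It was at 2.41, 4.59 and 2.43 FPKM in shControl and at 2.28, 2.6 and 2.53 FPKM in shPUS1, so that 5 libraries lay within a narrow range and shControl replicate 2 alone was high. For TRUB2 the log2 fold change went from -0.34 (95% interval -1.0 to 0.31, adjusted p = 0.468, edgeR) with all libraries to 0.07 (95% interval -0.21 to 0.34, adjusted p = 0.727, edgeR) without that library.

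RPUSD3 and RPUSD4 act on mitochondrial RNA, including 16S rRNA. RPUSD3 was at 5.78, 4.86 and 5.78 FPKM in shControl and at 4.58, 4.50 and 5.09 FPKM in shPUS1. It was 1 of the synthases that were not raised in shControl replicate 2, where it had its lowest control level. The log2 fold change was -0.19 (95% interval -0.50 to 0.13, adjusted p = 0.41, edgeR) with all libraries and -0.25 (95% interval -0.49 to -0.01, adjusted p = 0.127, edgeR) without replicate 2, when the groups no longer overlapped. RPUSD4 was at 7.14, 10.10 and 7.33 FPKM in shControl and at 7.03, 7.63 and 6.69 FPKM in shPUS1, with overlapping groups. Its log2 fold change was -0.19 (95% interval -0.61 to 0.24, adjusted p = 0.542, edgeR), and 0.02 (95% interval -0.21 to 0.25, adjusted p = 0.917, edgeR) without shControl replicate 2.

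**Figure D2:**
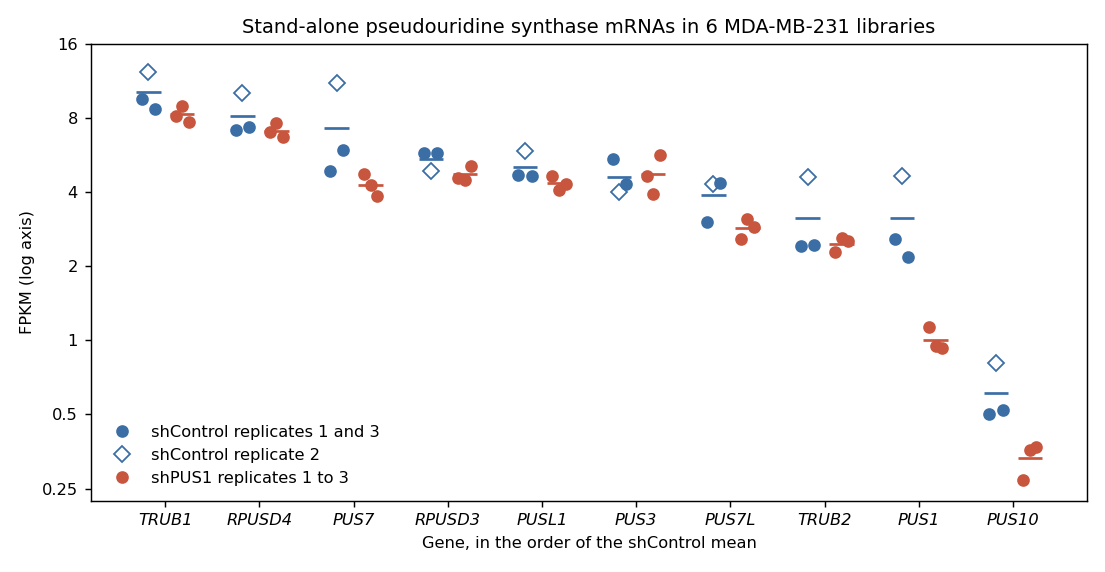
FPKM of each synthase mRNA in each of the 6 libraries on a log axis, with genes in the order of their shControl mean. Circles and diamonds are libraries, the open diamond is shControl replicate 2, and short lines are arm means of 3 libraries. PUS1 falls from a mean of 3.14 FPKM in shControl to 1.00 in shPUS1, and TRUB2 is at 4.59 FPKM in shControl replicate 2 and between 2.28 and 2.6 FPKM elsewhere.

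**Figure D3:**
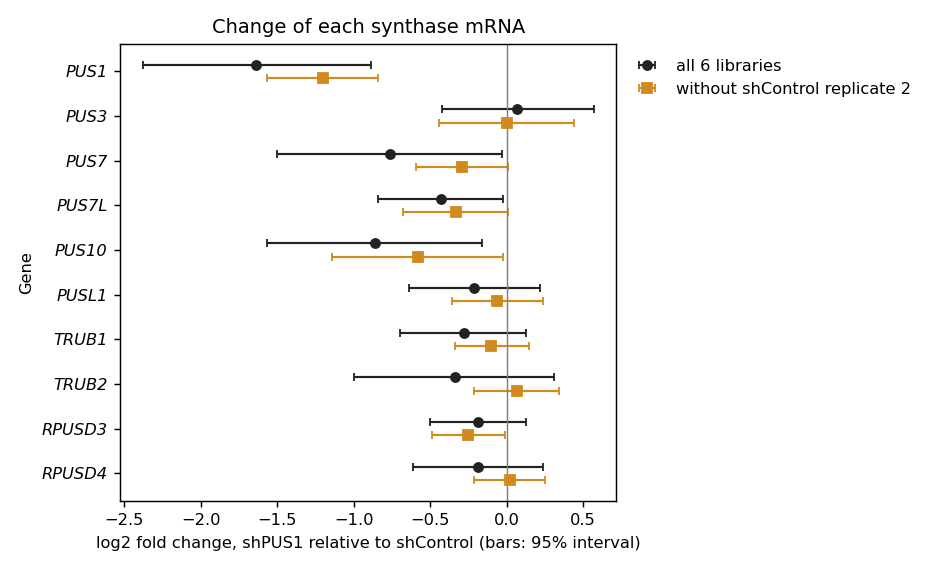
Log2 fold change of each synthase mRNA in shPUS1 relative to shControl from edgeR, with all 6 libraries (circles) and without shControl replicate 2 (squares). Bars are 95% intervals without adjustment for the number of genes. PUS1 lies at -1.64 and -1.20, and PUS10 and PUS7 at -0.86 and -0.76 with all libraries move to -0.58 and -0.29.

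Set against all genes, the fold changes of the other synthases were mostly small and negative. Of the 10 synthases 9 had a fold change below 0, as did 52.7% of all tested genes, and 8 without shControl replicate 2, against 52.1%. The 8 include PUS3, at -0.003. PUS1, the hairpin's own target, is included in these and in all following counts out of 10, so that they are not counts of the other synthases alone. The median log2 fold change was -0.28 over the other 9 synthases and -0.03 over all tested genes, and without shControl replicate 2 the medians were -0.10 and -0.02. Every shPUS1 FPKM was below every shControl FPKM for 4 of the 10 (PUS1, PUS7, PUS10 and PUSL1), where 19.4% of all tested genes had this pattern. Without shControl replicate 2 it held for 5, with RPUSD3 added, against 29.7% of tested genes. These counts depended on the scale. In CPM scaled by the TMM factors of the edgeR fit, a comparison chosen after seeing the data, 2 of the 10 (PUS1 and PUS10) did not overlap, against 17.3% of tested genes. There were 3 when shControl replicate 2 was left out, with RPUSD3 added, against 25.7%. PUS7 and PUSL1 overlapped on that scale in both cases. An unadjusted p under 0.05 was found for 4 of the 10 (PUS1, PUS7, PUS7L and PUS10) and for 25.5% of all tested genes.

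PUS1 made up a smaller share of the summed FPKM of these 10 synthases in each shPUS1 library than in any control. The summed FPKM of the 10 genes was 45.99, 62.71 and 46.23 in shControl and 40.09, 40.40 and 40.02 in shPUS1. PUS1 made up 5.59%, 7.43% and 4.72% of that sum in shControl replicates 1, 2 and 3, and 2.82%, 2.35% and 2.32% in the shPUS1 replicates. The PUS1 FPKM was 0.670, 0.905 and 0.550 times the geometric mean of the other 9 in shControl, and 0.345, 0.279 and 0.271 times in shPUS1. These shares did not overlap between the arms, with or without shControl replicate 2. The other 9 genes without PUS1 summed to 43.42, 58.05 and 44.05 FPKM in shControl and to 38.96, 39.45 and 39.09 FPKM in shPUS1, so that no sum in shPUS1 reached a control.

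The order of the genes by FPKM was led by TRUB1 and then RPUSD4 in both arms, and closed by PUS1 and then PUS10. With all 3 shControl libraries the values of all neighbours in this order overlapped, except that PUS1 (2.18 to 4.66 FPKM) was above PUS10 (0.50 to 0.81 FPKM) throughout. PUS1 and TRUB2 had nearly the same shControl mean, at 3.14 and 3.14 FPKM, and in shPUS1 they were separated, at 1.00 ± 0.110 and 2.47 ± 0.168 FPKM (SD, n = 3). PUS7 held rank 3 in shControl (7.31 ± 3.36 FPKM, SD, n = 3) and rank 6 in shPUS1 (4.28 ± 0.440 FPKM, SD, n = 3), where it overlapped with PUS3, RPUSD3 and PUSL1. When shControl replicate 2 was left out, PUS7 (5.4 FPKM) held rank 4, below RPUSD3 (5.78 FPKM). TRUB1 and RPUSD4, RPUSD4 and RPUSD3, PUSL1 and PUS7L, and PUS7L and TRUB2 were then separated neighbours, as were PUS1 and PUS10, with 2 control libraries behind each mean.

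The other genes of the pathway were taken as 5 lists of 16 genes in all, and none of the 16 was called with all 6 libraries by edgeR (0.841% of tested genes called lower and 1.74% higher), with 1 gene, NHP2, at an adjusted p of 0.0411 and lower in shPUS1 by DESeq2. Their median log2 fold change was -0.11. Without shControl replicate 2, 1 of the 16 was called higher and 1 lower, where 9.8% and 8.79% of all tested genes were called. Among the remaining synthases, RPUSD1 was at 7.27, 11.48 and 6.69 FPKM in shControl and 9.11, 8.37 and 8.97 FPKM in shPUS1. It was above shControl replicates 1 and 3 in each shPUS1 library and below replicate 2, with a log2 fold change of 0.07 (adjusted p = 0.876, edgeR) that became 0.38 (adjusted p = 0.0464, edgeR) without it. At the other end of this list with all libraries was DKC1, the gene of dyskerin, at -0.37 (adjusted p = 0.352, edgeR). Without shControl replicate 2 DKC1 was at -0.05 (adjusted p = 0.782, edgeR), and RPUSD2 was the lowest of the list, at -0.23 (adjusted p = 0.316, edgeR).

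Of the genes of the H/ACA particle and its assembly, NHP2, a core protein of the particle, was at 56.28, 79.84 and 45.13 FPKM in shControl and at 37.75, 34.50 and 38.78 FPKM in shPUS1, without overlap. Its log2 fold change was -0.69 (95% interval -1.21 to -0.18, adjusted p = 0.114, edgeR) with all libraries and -0.41 (adjusted p = 0.0492, edgeR) without shControl replicate 2. The assembly factor SHQ1 was at the other end, at 0.23 (adjusted p = 0.358, edgeR) with all libraries and 0.28 (adjusted p = 0.133, edgeR) without that control. PUDP, which removes phosphate from pseudouridine monophosphate, was at -0.28 (adjusted p = 0.21, edgeR) and -0.27 (adjusted p = 0.0997, edgeR) in the same fits. Of the partners that act with RPUSD4, RPUSD3 and TRUB2 on mitochondrial 16S rRNA, FASTKD2 was lowest at -0.42 (adjusted p = 0.236, edgeR) and RCC1L highest at -0.02 (adjusted p = 0.962, edgeR) with all libraries. Without shControl replicate 2 FASTKD2 was at -0.18 (adjusted p = 0.269, edgeR), and RCC1L turned to 0.28 (adjusted p = 0.0938, edgeR).

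Known RNA substrates of these enzymes were measured as levels in poly(A)-selected RNA, since pseudouridine itself is not seen in these data. After this selection the level of a ribosomal RNA need not follow its amount in the cell. The 16S rRNA gene MT-RNR2 was at 10018, 3299 and 9192 FPKM in shControl and at 9254, 7718 and 9364 FPKM in shPUS1, with shControl replicate 2 far below the other 5 libraries. The log2 fold change of MT-RNR2 was 0.26 (95% interval -0.54 to 1.06, adjusted p = 0.658, edgeR), and -0.09 (adjusted p = 0.58, edgeR) without that library. MT-CO3, a subunit of cytochrome oxidase, was at 3822, 6143 and 3544 FPKM in shControl and at 3447, 3026 and 3330 FPKM in shPUS1, highest where MT-RNR2 was lowest. It marked the lower end of the list at -0.45 (adjusted p = 0.255, edgeR), and was at -0.13 (adjusted p = 0.347, edgeR) without shControl replicate 2. SRA1, a steroid receptor coactivator RNA that PUS1 modifies, was at 0.08 (95% interval -0.28 to 0.45, adjusted p = 0.77, edgeR), and at 0.19 (adjusted p = 0.311, edgeR) without that library. All counts of mitochondrial genes made up 4.93%, 4.78% and 4.93% of the shControl libraries and 5.09%, 4.31% and 4.68% of the shPUS1 libraries.

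**Figure D4:**
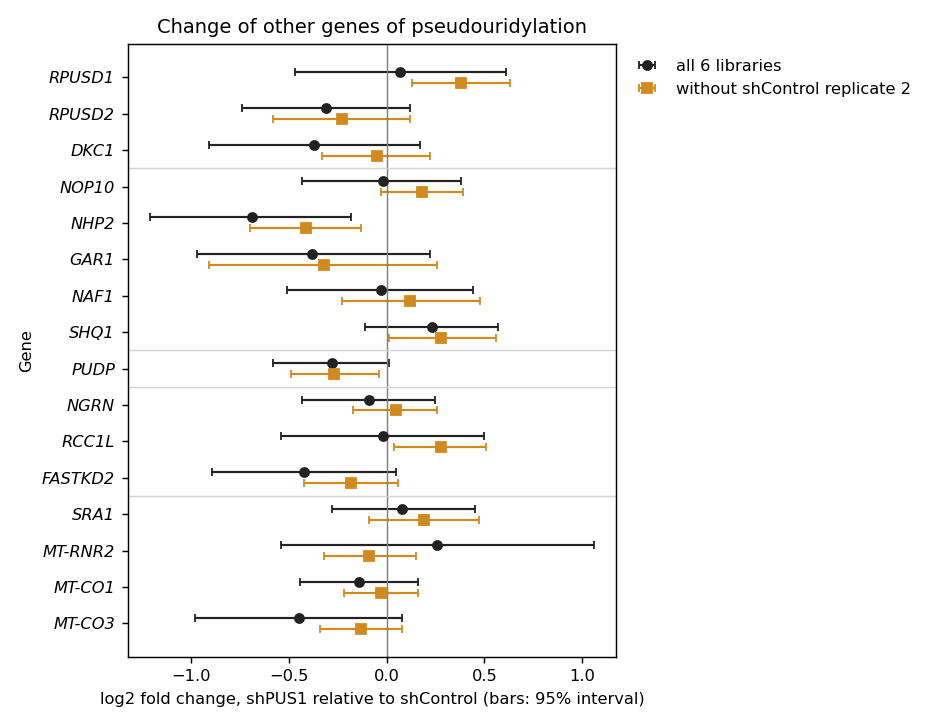
Log2 fold change in shPUS1 relative to shControl with 95% intervals from edgeR for 16 other genes of pseudouridylation, with all 6 libraries (circles) and without shControl replicate 2 (squares). Grey lines separate the remaining synthases, the H/ACA particle, catabolism, mitochondrial partners and substrates. NHP2 is the lowest at -0.69, and MT-RNR2 has the widest interval, from -0.54 to 1.06.

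The 4 genes whose profile over the 6 libraries was most like that of PUS1 were found from log2 CPM centred on each gene's mean, by the root mean square difference from PUS1. They were TADA2A, a subunit of histone acetyltransferase complexes (0.0664), HMMR, a hyaluronan receptor of dividing cells (0.169), BRI3BP (0.178) and LMNB1, the gene of lamin B1 (0.188). TADA2A was at 2.72, 4.87 and 2.47 FPKM in shControl and at 1.17, 0.96 and 0.90 FPKM in shPUS1. HMMR was at 4.83, 6.91 and 4.63 FPKM in shControl and at 1.84, 1.69 and 1.83 FPKM in shPUS1. All 4 shared with PUS1 a peak in shControl replicate 2 and no overlap between the arms. These 4 were picked for their likeness, so that their log2 fold changes of -1.72, -1.59, -1.39 and -1.38 with all libraries, and of -1.32, -1.36, -1.0 and -0.85 without shControl replicate 2, are a description. Among the synthases PUS10 (0.454) and PUS7 (0.463) were nearest to PUS1, with 3.12% and 3.49% of tested genes closer, and PUS3 (0.918) was farthest, with 55.4% closer.

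**Figure D5:**
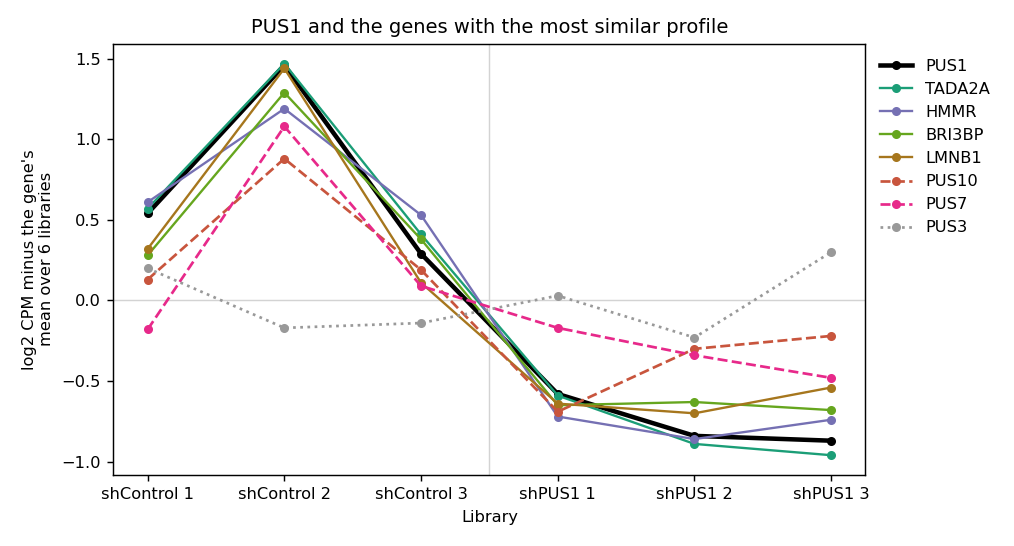
Log2 CPM in each library minus the gene's mean over 6 libraries, for PUS1 (thick line), the 4 genes most like it and 3 synthases (broken lines). Lines join libraries only as a guide. PUS1 is at 0.54, 1.46 and 0.29 in shControl and at -0.58, -0.84 and -0.87 in shPUS1, and PUS3 stays between -0.23 and 0.30.

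No stretch of 100 bases in the GENCODE 29 transcripts of the 10 genes occurred in a transcript of another gene. Genes on the opposite strand overlap some of them, and whether counting used strand is not stated in the sources used here. In all 9 tested genes overlapped a synthase gene or began within 1000 bases of its start, and none of them was called with all 6 libraries by edgeR. HYLS1, a centriole gene that overlaps PUS3 on the other strand but shares no exonic base with it in GENCODE 29, was at 16.01, 28.73 and 15.46 FPKM in shControl and at 10.26, 8.88 and 11.40 FPKM in shPUS1. Its log2 fold change was -0.97 (adjusted p = 0.09, edgeR), and -0.59 (adjusted p = 0.0156, edgeR) without shControl replicate 2, where that of PUS3 was -0.003. DESeq2 on all 6 libraries called HYLS1 lower (adjusted p = 0.0132). Of all tested genes, 8.79% were called lower by edgeR without shControl replicate 2 and 5.68% by DESeq2 on all 6 libraries. The other 8 were IRAK4 beside PUS7L, PEX13 beside PUS10, INTS11 and ACAP3 beside PUSL1, COQ4 and SWI5 beside TRUB2, TTLL3 beside RPUSD3 and FAM118B beside RPUSD4, with log2 fold changes from -0.36 (SWI5) to 0.31 (ACAP3) with all libraries and from -0.38 (SWI5) to 0.27 (ACAP3) without shControl replicate 2, past the threshold in neither fit. For each single neighbour that shared any, shared bases made up between 3.38% and 6.75% of the exonic bases of PUS10, PUSL1, TRUB2 or RPUSD4. PUSL1 shared 3.74% with INTS11 and another 6.75% with ACAP3. PUS1 had no tested neighbour.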

How the data were processed

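The authors aligned reads with HISAT2 and counted them with HTSeq 0.6.1, per the labels' processing notes and the methods. The genome build, annotation release and strand setting are not given in the sources used here. The deposited values were estimated counts per gene, of which 29.8% to 31.8% of those above 0 were not whole, and FPKM that the authors made from these counts. How the stated counting step gave values that are not whole was not determined. Coordinates were taken from the table as deposited, and 4 of the 10 genes had identical coordinates in GENCODE 29 (GRCh38), and all had the same chromosome and strand. Hairpin targets came from the study's supplement and were matched to GENCODE 29 transcripts.

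Before testing, counts were rounded. Genes with low counts were dropped by filterByExpr, and libraries were scaled by TMM (factors 0.973 to 1.032) and compared in edgeR 4.0.16 (R 4.3.3, quasi-likelihood test). Benjamini-Hochberg adjustment ran over 14748 genes, with a threshold of 0.05 and a prior count of 2. Alternatives used DESeq2 1.42.0 and limma 3.58.1. The test was run on simulated data. The filter left 99.853% to 99.893% of each library's counts. No pairing by replicate number was seen in residual correlations (-0.0529, -0.0256 and -0.19). With 3 libraries in each arm, and shControl replicate 2 apart, this check cannot decide whether libraries were paired. Genes named were all 10 synthases, called genes or range ends of 5 pathway lists, tested neighbours, the 4 genes most like PUS1 and cell type markers. The genes and lists were chosen with earlier results of these data known.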

Additional observations from a re-analysis of the deposited data

How the results depend on the processing

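PUS1 stayed lower in shPUS1 in all 16 alternatives. Its log2 fold change was -1.48 with limma on log2(FPKM + 0.1) (adjusted p = 0.057) and -1.0 on log2(FPKM + 1) (adjusted p = 0.0593), and it ranged from -1.86 to -1.20 when 1 library was left out. With a replicate block in edgeR it was -1.55 (adjusted p = 0.0969), and the number of synthases called lower fell from 1 to 0, as it did with limma on either FPKM scale. Leaving out 1 library gave 0 to 1 synthases called lower. For the other 9 synthases no call was made under any alternative, and 137 of 144 values kept their direction. PUS10 ranged from -1.0 to -0.27, the latter with limma on log2(FPKM + 1), and PUS7 from -1.0 to -0.26, the latter with voom weights, which also gave -0.06 for PUSL1, -0.13 for TRUB1, -0.02 for TRUB2 and -0.001 for RPUSD4. The direction was reversed for PUS3 with voom weights (-0.06), without shControl replicate 2 (-0.003) and without shPUS1 replicate 3 (-0.07). TRUB2 (0.07) and RPUSD4 (0.02) reversed without shControl replicate 2, and also with DESeq2 on the same 5 libraries (0.08 and 0.03), an alternative chosen after seeing the data. With 1 library left out, the log2 fold changes ran from -0.07 to 0.2 for PUS3, -0.52 to 0.07 for TRUB2 and -0.29 to 0.02 for RPUSD4. The causes were not tested.

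Numbers of genes called moved most. Against 256 higher and 124 lower, there were 756 and 528 without a filter on low counts, 1073 and 837 with DESeq2, 1692 and 1398 with voom and sample weights, and 1740 and 1260 with DESeq2 without shControl replicate 2. There were 164 higher without TMM, 157 higher with limma on log2(FPKM + 0.1), and 131 higher and 71 lower with a log2 fold change of 1 or more in size. With the replicate block edgeR called 18 genes higher and 0 lower, where 1254 were lower at an unadjusted p under 0.05. Leaving out 1 library gave 0 to 1483 genes higher and 0 to 1330 lower, the most without shControl replicate 2, which then included all 256 and 124. Without shPUS1 replicate 3 edgeR called 0, with 1402 higher and 1179 lower at an unadjusted p under 0.05. PUS10 had the fewest counts of the synthases, at 37 to 121 per library, and PUS1 came next in shPUS1, at 91 to 118. Whether depth limited these fits was not tested.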
